A study of Mus musculus with 2 samples.

Results

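The desmosome and epithelial adhesion genes were examined in fetal mouse esophagus at E18.5, shortly before birth. The set comprised the desmosomal cadherins Dsg2, Dsg3, Dsc2 and Dsc3, the plaque genes Jup, Pkp1 and Dsp, the desmosomal tetraspan gene Perp, and the adhesion molecules Cdh1 and Epcam. Every probe set annotated to a single one of these symbols was taken, which gave 19 probe sets for 9 of the 10 genes, out of 34945 singly named probe sets for 18193 genes on the array. Dsg3 had no such probe set and was not analysed here. One array held RNA of wild-type esophagus, with a genotype given as BALB/c. The other held esophagus labelled null for both Myf5 and Myod1, also given as BALB/c. Both tissues were fetal esophagus of the same age, and neither had a stated treatment. The sources used here do not give the number of embryos behind each RNA sample. There was 1 array per genotype, so differences carry no test and describe these 2 RNA samples only.

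Desmosomes are junctions that tie the keratin filaments of neighbouring epithelial cells together and let a stratified epithelium withstand stretch. Desmogleins and desmocollins meet between the cells, plakoglobin (Jup) and plakophilins bind their tails, and desmoplakin (Dsp) anchors the keratins. In the esophagus they hold together the squamous lining, which lies inside the muscle coat where Myf5 and Myod1 direct the formation of striated fibres. E-cadherin (Cdh1) forms the adherens junctions of the same cells. Epcam is a surface adhesion molecule of simple and progenitor epithelia.

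The values were MAS5 signals, a linear intensity per probe set that the authors scaled to the same trimmed mean on both arrays. A low-signal limit of 489, the median of all probe sets of both arrays, stood in for detection calls. Signals under it were raised to it before the null-labelled signal was divided by the wild-type signal and expressed as a log2 ratio. A probe set under it on 1 array has a bound, and a probe set under it on both has no ratio. The wild-type array had 44.6% of its probe sets at or above that limit, and the null-labelled array 55.4%. Where a gene had several probe sets, the one with the highest mean signal represented it. Striated muscle markers were lower on the null-labelled array in 10 of 10 genes, with a median log2 ratio of -6.07. Myf5 read 4072 and 496, while Myod1 read 2001 and 1698 at its brighter probe set. The sources used here do not place the Myod1 probe set relative to the deleted part, so it does not check the label. The 3' signal of the beta-actin control exceeded its 5' signal 12.6-fold in the wild type and 14.2-fold in the null-labelled sample, and that of Gapdh 10.5-fold and 6.96-fold. Its part in the gene ratios was not tested.

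Myf5 and Myod1 encode factors that bind E-boxes, the 6-base motif CANNTG. RefSeq promoter sequences on the GRCm38.p6 build were at hand for 3 members. Of these, the 250 bases before the start are printed for Epcam and Dsp, because both targeted factors and the classical repressors of Cdh1 read such motifs. Capitals mark every CANNTG, a motif that reads alike on both strands, and each line runs 5' to 3' on the strand of the gene.
Epcam, chr17:87635729-87635978, plus strand: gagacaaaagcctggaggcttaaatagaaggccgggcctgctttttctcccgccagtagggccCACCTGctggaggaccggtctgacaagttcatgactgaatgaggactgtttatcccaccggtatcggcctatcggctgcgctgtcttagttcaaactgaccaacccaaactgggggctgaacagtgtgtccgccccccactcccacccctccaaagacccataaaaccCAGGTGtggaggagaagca
Dsp, chr13:38151044-38151293, plus strand: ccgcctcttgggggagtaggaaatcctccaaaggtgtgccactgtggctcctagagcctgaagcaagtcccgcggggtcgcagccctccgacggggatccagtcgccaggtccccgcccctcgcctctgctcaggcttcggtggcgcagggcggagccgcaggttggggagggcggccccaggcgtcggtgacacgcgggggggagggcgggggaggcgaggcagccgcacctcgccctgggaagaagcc
The Epcam window held 2 matches, CACCTG and CAGGTG, which are the same motif read from opposite strands. The Dsp window held 0. The Jup window of this length also held 0, but 49 of its bases lie inside the annotated gene, so it does not precede every annotated start and is not printed. Of 32851 promoter windows of this length, 66.2% held a CANNTG and 17.2% held CACCTG or CAGGTG. A match is only a run of letters, and binding was not measured here.

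As a group, the desmosome and adhesion genes read close to equal on both arrays. Not 1 of the 9 measured genes was at least 2-fold apart. Over all 13315 measured genes, the share past 2-fold was 5.36% in the lower and 6.01% in the higher direction, so 0 of 9 lies near the background and is not a result particular to these genes. Of the 9 genes, 5 read lower and 4 higher, with a median log2 ratio of -0.12 against 0.09 for all measured genes. The median size of the log2 ratio, regardless of direction, was 0.29 for these genes and 0.39 for all measured genes. The only error available is how far probe sets for the same gene disagree. Pooled over 5455 genes with 14307 probe sets, their log2 ratios had an SD of 0.56, which holds no variation between animals. In all, 8 of them differed between arrays by less than this SD, and Epcam was the exception. In whole tissue, fewer cells of a type and less RNA per cell cannot be told apart.

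**Figure D1:**
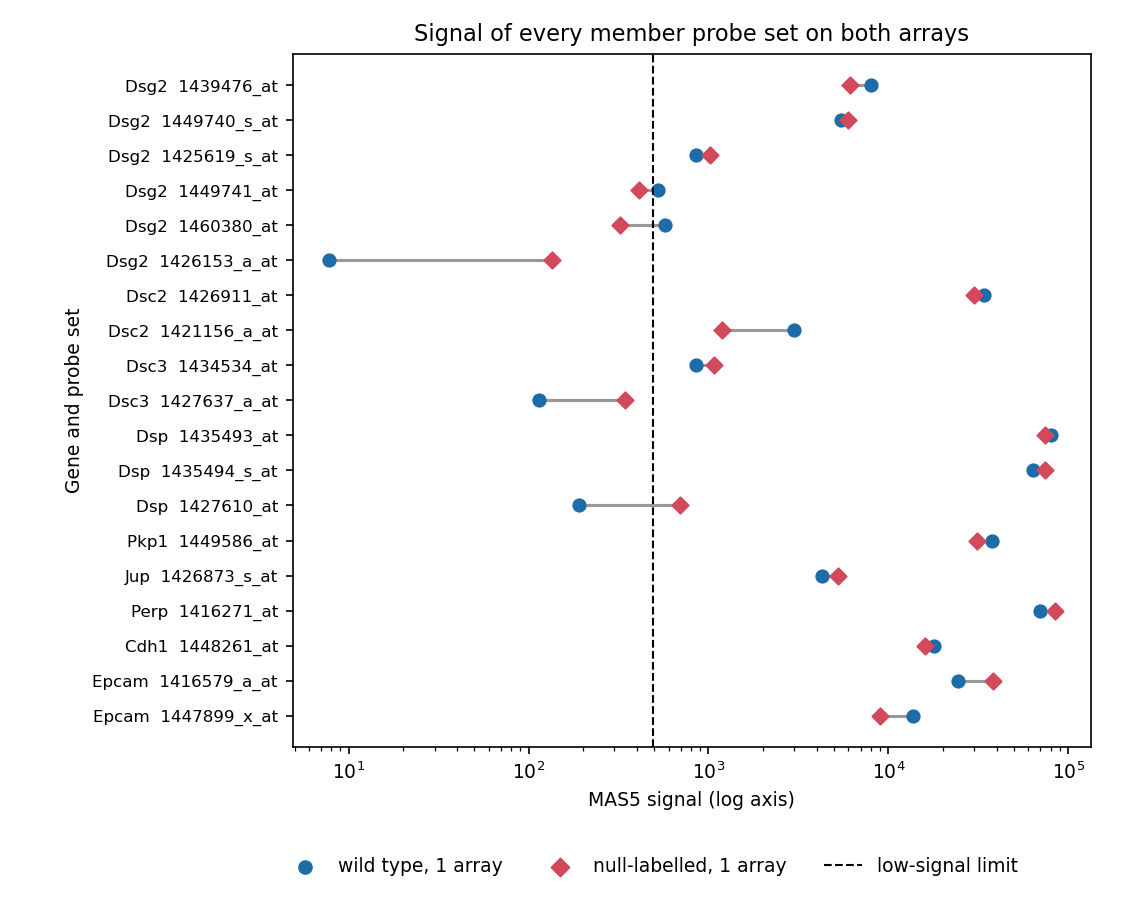
MAS5 signal (log axis) of each of the 19 member probe sets on the wild-type array (circles) and the null-labelled array (diamonds), 1 array each, with the low-signal limit of 489 as a dashed line. The paired symbols lie close together for most bright probe sets, and the widest gaps are at dim probe sets, at Dsc2 1421156_a_at and at both Epcam probe sets.

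Among the desmosomal cadherins, Dsg2 encodes the desmoglein found in nearly all desmosome-bearing tissues, including simple epithelia and heart. Its brightest probe set, 1439476_at, had a wild-type signal of 8048 and a null-labelled signal of 6098, which is 1.32-fold lower (log2 ratio -0.40). The next, 1449740_s_at, read 5462 and 5940, and 1425619_s_at read 850 and 1020, log2 ratios of 0.12 and 0.26 in the other direction. The last turned slightly negative (-0.023 at the lowest) in 2 of 5 alternatives, quantile normalization and loess. Thus the Dsg2 probe sets measured on both arrays did not share a direction, and the 3 values spanned 0.66 on the log2 scale. A dimmer pair fell below the limit on the null-labelled array. Their signals were 522 and 409 for 1449741_at and 576 and 322 for 1460380_at, bounds of at least 1.07-fold and 1.18-fold lower. The remaining Dsg2 probe set, 1426153_a_at, had no ratio, with signals of 7.75 and 135 under the limit. Of the 6, 4 are annotated to a source sequence that another member probe set also carries. Whether their probes overlap was not examined, so they may not be separate measurements.

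Dsc2 encodes the broadly expressed desmocollin. Its brighter probe set, 1426911_at, read 34029 and 29893, 1.14-fold lower (log2 ratio -0.19). Its second, 1421156_a_at, read 2995 and 1189, 2.52-fold lower (log2 ratio -1.33). Both Dsc2 probe sets were thus lower on the null-labelled array, but by amounts 1.15 apart on the log2 scale, more than the pooled SD between probe sets. The second was the 1 member probe set of 17 with a ratio that was at least 2-fold lower, and 0 passed 2-fold in the higher direction. Over all named probe sets with a ratio, the shares were 4.94% lower and 5.94% higher.

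Dsc3, the desmocollin of the basal layers of stratified epithelia, was dim. It read 849 and 1072 at 1434534_at, 1.26-fold higher (log2 ratio 0.34), and its other probe set, 1427637_a_at, had no ratio, with signals of 114 and 343. Dsc3, Dsc2, Dsg3 and Dsg2 belong to 1 cluster of cadherin genes on 1 chromosome in the GRCm38.p6 annotation. The 3 with probe sets ranged from -0.40 to 0.34 at their brightest probe sets.

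The plaque genes stayed near equal as well. Desmoplakin, Dsp, gave 2 bright probe sets annotated to a shared source sequence, 1435493_at with 80250 and 74083 and 1435494_s_at with 63344 and 74157. Their log2 ratios were -0.12 and 0.23, of opposite sign and both within the SD between probe sets. A dim probe set, 1427610_at, read 191 and 696 and was at least 1.42-fold higher. Pkp1 encodes plakophilin 1, which strengthens desmosomes in the upper layers of stratified epithelia. It read 37902 and 31072, 1.22-fold lower (log2 ratio -0.29). Jup encodes plakoglobin, which serves both desmosomes and adherens junctions, and read 4259 and 5218, 1.23-fold higher (log2 ratio 0.29). Each of Pkp1 and Jup rested on 1 probe set, and that of Jup is of a type (_s_at) whose probes can match transcripts of more than 1 gene.

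Perp encodes a tetraspan protein of desmosomes that Trp63 activates in stratified epithelia. It read 69652 and 84326, 1.21-fold higher (log2 ratio 0.28). Trp63 itself read 20777 and 32742 (log2 ratio 0.66) at its brightest probe set, while its others gave -0.16 and, as a bound, 0.24. Cdh1 read 17914 and 15944, 1.12-fold lower (log2 ratio -0.17), well inside the SD between probe sets. Among all measured genes the Perp and Cdh1 ratios lay at the 63.8th and 32.6th percentiles, both inside the middle of the distribution.

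Epcam had the largest ratio among the brightest probe sets, and its probe sets read in opposite directions. At 1416579_a_at it read 24356 and 38308, 1.57-fold higher (log2 ratio 0.65, the 84.1st percentile of all measured genes). At 1447899_x_at it read 13675 and 9015, 1.52-fold lower (log2 ratio -0.60). The suffix _x_at marks probes that may bind other transcripts. These values give no common direction for Epcam, and their median was 0.026. Among 2496 genes with exactly 2 probe sets measured on both arrays, the probe sets differed by a median of 0.45, had opposite signs in 43.0% and differed by less than 1 in 84.0%. The differences of 1.25 for Epcam and 1.15 for Dsc2 thus belonged to the wider end of that range.

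**Figure D2:**
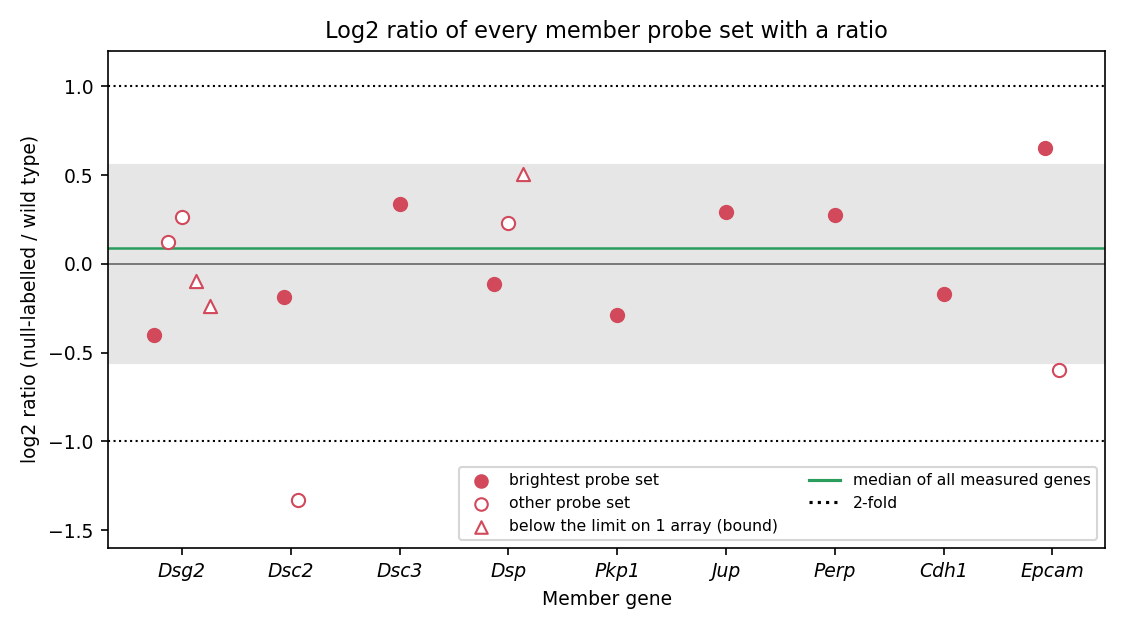
Log2 ratio (null-labelled over wild type) of each of the 17 member probe sets with a ratio, by gene. Filled circles are the brightest probe set of a gene, open circles others and triangles bounds; the grey band is 1 SD (0.56) between probe sets of 1 gene, the green line the median of all measured genes (0.09) and the dotted lines 2-fold, which only the second Dsc2 probe set passes.

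Across the 14 member probe sets measured on both arrays, 7 read lower and 7 higher, 11 lay within 1 SD of 0, and the median log2 ratio was 0.0028. The range ran from -1.33 (Dsc2) to 0.65 (Epcam). The SD between member probe sets of 1 gene was 0.59 over 9 probe sets of 4 genes, beside 0.52 for all genes with probe sets measured on both arrays. That 0.59 came mostly from the pairs of Dsc2 and Epcam. The 9 genes, each at its brightest probe set, had an SD of 0.35 among themselves. This value leaves out the second probe sets of Dsc2 and Epcam, so the SDs cover unlike sets of values.

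The stratified keratins, the filaments that desmosomes anchor, gave a reference within the same epithelium. On both arrays Krt4, Krt5 and Krt13 were far above the limit, and of the epidermis markers Krt1 and Krt2 were below it on both while Krt10 (1051 and 1440), Lor (2368 and 2675) and Krtdap (879 and 1673) were above it on both. Of 7 stratified keratins 1 was at least 2-fold lower, Krt14 (5532 and 2248, 2.46-fold), and 0 were higher, with a median log2 ratio of -0.27. With the median over probe sets 2 were at least 2-fold lower, Krt14 and Krt6a. Krt6a read 1.56-fold lower, and Krt4 1.49-fold higher at its brighter probe set with -0.25 at its other. Set against the keratin median, the members had a median of 0.16, from -0.13 for Dsg2 to 0.93 for Epcam, and 6 of 9 lay within 1 SD between probe sets of it. Krt4 and the Krt6a size depended on the probe set and scaling, as Krt4 turned negative in 2 of 8 alternatives.

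Simple epithelium markers read lower on the null-labelled array. All 6 had ratios below 0 and 4 at least 2-fold lower, with a median log2 ratio of -1.43. Krt7 read 20251 and 3396 (5.96-fold lower), Cldn4 10380 and 2662 (3.90-fold), Krt19 30369 and 9856 (3.08-fold) and Krt8 17122 and 7223 (2.37-fold). Over all measured genes, 5.36% were at least 2-fold lower. At the brightest probe sets, only Krt18 of this list, at -0.26, lay within the range of the members. Of the members, Dsg2 (-0.40) and Pkp1 (-0.29) lay within the range of this list, -2.58 to -0.26. The second probe sets of Dsc2 (-1.33) and Epcam (-0.60) did so as well. The difference between the lists was not tested.

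Other genes of the desmosome read mostly lower. Of 8 with a probe set 5 were measured, 0 were 2-fold apart and 4 read lower, with a median log2 ratio of -0.39. Pkp2, the plakophilin of heart and simple epithelia, read 1029 and 570 (1.80-fold lower), the envelope plakin Ppl 15746 and 9599 (1.64-fold lower) and Pkp3 10272 and 7836 (log2 ratio -0.39). Evpl had a log2 ratio of -0.19. Pkp2 and Ppl lay below the members at their brightest probe sets (lowest -0.40), but not below the second Dsc2 probe set (-1.33). Pkp2 passed 2-fold with quantile normalization (-1.18) and loess (-1.24). Its value came from an _s_at probe set, and its other probe sets lay below the limit on both arrays. Dsg1a, Dsg1b and Dsc1, cadherins of the outer layers of keratinized epithelia, lay below the limit on both arrays.

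Partners of Cdh1 in the adherens junction went both ways. Of 10 genes 1 passed 2-fold in the lower and 0 in the higher direction, and the median log2 ratio was 0.30. Nectin3 was 2.36-fold lower (6509 and 2753), with -1.54 and -0.38 (log2) at its others. Ctnnb1, which encodes the beta-catenin that binds the Cdh1 tail, read 1.65-fold higher, with 0.28 and 0.78 at its other probe sets. Quantile normalization brought its log2 ratio at the brightest probe set from 0.72 to 0.16. P-cadherin, Cdh3, read 203 and 907, at least 1.85-fold higher, and Vcl 1.58-fold higher. A limit at the 75th percentile gave a list median of -0.32, so it has no settled direction. With a limit at the 25th percentile or none, Cdh3 passed 2-fold.

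Genes whose proteins associate with Epcam or control its cleavage read mostly lower. Of 7 measured genes 3 passed 2-fold in the lower and 0 in the higher direction, with a median log2 ratio of -0.64. Cldn7, the claudin that binds Epcam, read 12609 and 3262, 3.87-fold lower at its only probe set. Cd44 read 7160 and 2586, 2.77-fold lower, with -1.75 at its second probe set. Spint1, an inhibitor of the membrane protease encoded by St14, read 3321 and 1657, at the edge of the threshold, which it passed in 5 of 8 alternatives. Cd9 read 1.56-fold lower (log2 ratio -0.64). Spint2, a related inhibitor, went the other way at its brighter probe set (29420 and 34889, log2 ratio 0.25), with -0.64 at its second.

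Hemidesmosome genes, which fasten basal cells to the basement membrane, had a median log2 ratio of -0.11. Of 8 measured genes 1 was at least 2-fold lower, the laminin chain gene Lamb3 (2472 and 692, 3.57-fold), and 0 were higher. Itga6 read 1.97-fold and Plec 1.88-fold lower, while Lama3 read 1.49-fold higher. The Plec value came from an _s_at probe set, and its other measured probe set had a log2 ratio of -0.39. A 75th-percentile limit brought Lamb3 to -0.82, and after centring 3 genes were at least 2-fold lower, with Itga6 at -1.08 and Plec at -1.01. Of these, Plec is also expressed in muscle.

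Regulators of epithelial identity and of Cdh1 were likewise not 2-fold apart at their brightest probe sets. Of 12 epithelial transcription and splicing regulators 0 passed 2-fold, with a median of 0.074 that turned negative with centring (-0.032) and under a 75th-percentile limit (-0.039). Grhl2, an activator of Cdh1, read 1663 and 3175 (1.91-fold higher), Klf5 1.75-fold higher and Grhl3 1.48-fold lower. Grhl2 had a log2 ratio of 1.07 at another probe set, past 2-fold. With a limit at the 25th percentile or none 1 passed 2-fold, Ovol2 (40.4 and 685). Of 7 measured repressors of Cdh1 0 passed 2-fold, with a median of -0.10. Snai1 read 489 and 971 (1.98-fold higher) from a signal at the limit, Tcf4 1.74-fold lower, Zeb2 had a log2 ratio of -0.47 and Twist2 -0.30. Other probe sets of the repressors differed. Those of Tcf4 ran from -1.31 and -1.10, past 2-fold, to a bound of 0.37. Zeb1 had -0.10 at its brightest and a bound of -0.30, 0.91 and 0.98 at others. Snai2 had 0.25 and 0.88. Of 6 measured cadherins of mesenchyme, muscle and endothelium 0 passed 2-fold (median -0.31), with the muscle cadherin Cdh15 at 1904 and 965 (1.97-fold lower), Cdh13 at a log2 ratio of -0.45, Cdh2 at -0.43 and Cdh5 at 0.37. Cdh15 passed 2-fold after centring (-1.09), quantile normalization (-1.12) and loess (-1.11). Cdh5 turned negative in 2 of 7 alternatives and Cdh2 positive in 1 of 8.

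**Figure D3:**
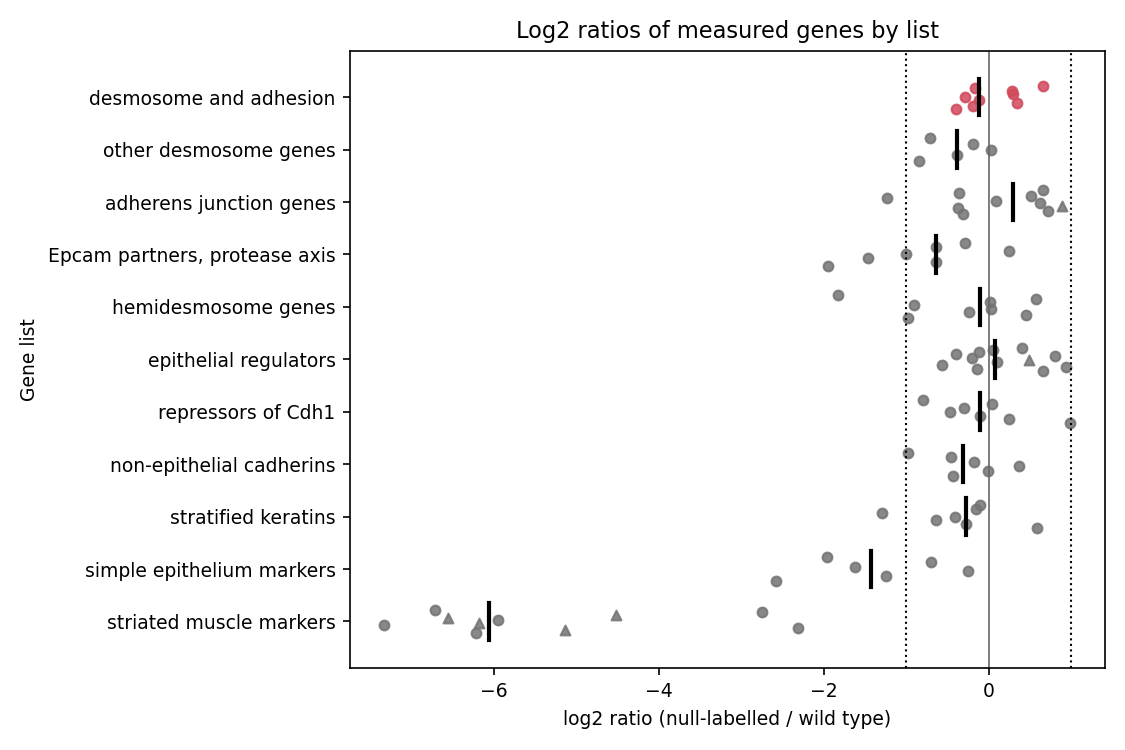
Log2 ratio (null-labelled over wild type) of each measured gene by list, with the median of each list as a black bar, bounds as triangles and 2-fold as dotted lines. The desmosome and adhesion genes (red, median -0.12) lie between the dotted lines, while 4 of 6 simple epithelium markers and 10 of 10 striated muscle markers lie below them.

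Epithelia of neighbouring organs and heart could add to these genes, and most of their markers were dim on both arrays. Summed signals, wild type first, were 9980 and 7289 for the lung list (6 of 8 measured), 5858 and 8515 for stomach (2 of 8), 3042 and 5644 for thymus (5 of 8), 2951 and 6063 for heart (6 of 8) and 4502 and 5937 for epidermis (3 of 5). The mesothelium list summed to 44852 and 19467 (3 of 5), almost all of it Upk1b. Of that list, Wt1 (284 and 422) and Lrrn4 (276 and 149) lay below the limit on both arrays. No marker was listed at 0, and the lung regulator Nkx2-1, the cardiac Tnni3, the gastric Gkn1 and the thymic Foxn1 lay below the limit on both arrays. The lung list had a median log2 ratio of 0.56, with the airway gene Scgb3a2 at 5302 and 692 (7.66-fold lower) and the surfactant genes Sftpc (0.75), Sftpb, Sftpd and Sftpa1 (bounds of 0.70, 0.62 and 0.51) higher. In the thymus list Rag1 read 256 and 2823, at least 5.77-fold higher, and Cd8a 1492 and 677, 2.20-fold lower, a direction that turned in 2 of 8 alternatives. Tff1 of the stomach read 1.97-fold higher and Tbx5 of the heart at least 3.19-fold higher, while the mesothelial Upk3b read at least 3.23-fold lower. Nkx2-5 of the heart read 630 and 1296, 2.06-fold higher, and passed 2-fold in 4 of 7 alternatives. With Tbx5 it made 2 of 6 measured heart genes past 2-fold higher, against 6.01% of all measured genes. The epidermal Krtdap read 1.90-fold higher. Smooth muscle markers had a median log2 ratio of 0.61, with 2 of 8 at least 2-fold higher, Mylk (2.83-fold) and Lmod1 (at least 2.67-fold). Mylk had a log2 ratio of 0.084 at another probe set and 0.75 with quantile normalization, and Cnn1 (1.69-fold lower) and Tagln (log2 ratio -0.47) went the other way. More probe sets were at or above the limit on the null-labelled array (55.4%) than on the wild-type array (44.6%). The part of this difference in the ratios of dim markers was not tested. With loess the list medians moved from 0.56 to 0.24 for lung, from 0.70 to 0.36 for heart and from 0.038 to -0.12 for thymus. The stomach median stayed near its value (0.40 and 0.43). The part of these tissues in the member ratios was not tested.

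Most member ratios changed little with processing, but several alternatives could not change them. For Pkp1, Perp and Cdh1, each with 1 bright probe set, the other limits return the same ratio. So do the median over probe sets and the removal of _x_at and _s_at probe sets. Among 9 genes and up to 8 alternatives, only Dsp changed sign, to 0.23 with the median of its probe sets in place of the brightest. Under that setting Dsc2 moved from -0.19 to -0.76 and Epcam from 0.65 to 0.026, each by more than the SD between probe sets. No gene reached 2-fold in any of them.

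**Figure D4:**
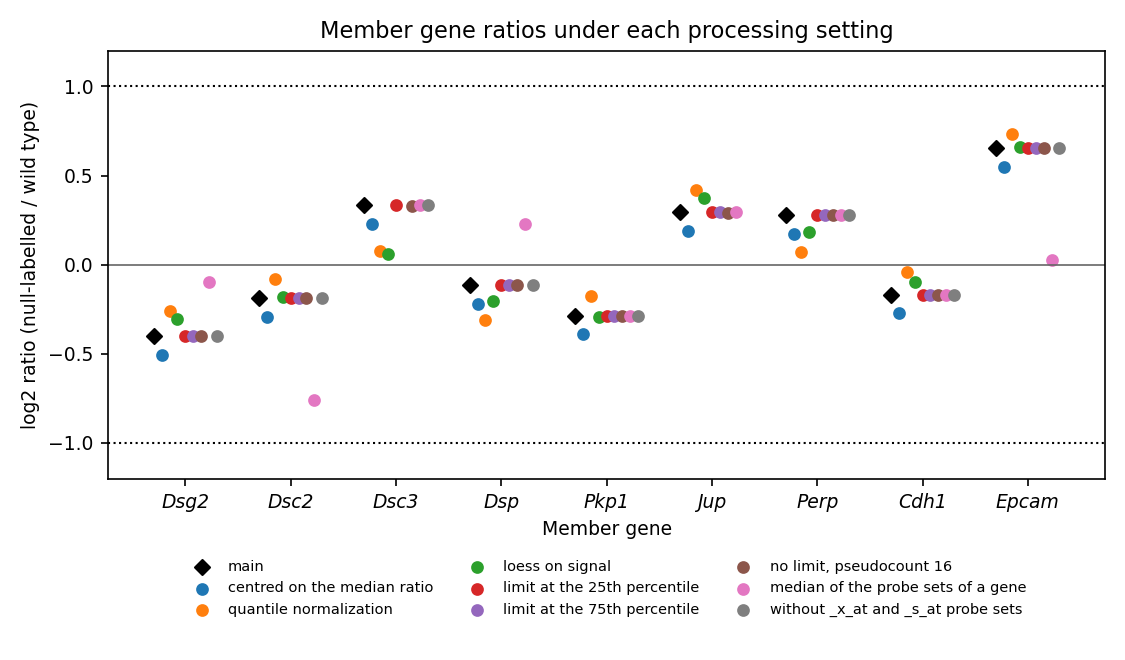
Log2 ratio (null-labelled over wild type) of the 9 measured member genes as reported (black diamonds, "main") and under each of 8 processing alternatives (coloured circles), with 2-fold as dotted lines. All values lie between -0.76 and 0.73; Dsc3 has no value under a 75th-percentile limit and Jup none without _x_at and _s_at probe sets.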

How the data were processed

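Total RNA of fetal esophagus (6 µg) was labelled as biotinylated cRNA and hybridized to Affymetrix arrays, per the labels' protocols. The authors deposited linear signal intensities that MAS5 had summarised, per the submitters' processing notes (version and settings not given in the sources used here). Their mean was 1500 on both arrays after trimming 2% at each end. Of 45101 probe sets, 64 controls were left out, and 34945 carried 1 symbol, 932 several and 9160 none in GEO's annotation. Symbols were updated by Entrez ID through RefSeq (GRCm38.p6) for 34741. The authors' scaling was kept, with a low-signal limit at the median. A 2-fold rule of size replaced a test, because there is 1 array per group, and this number limits the precision. The members and lists were chosen with earlier results of these data known. The text names all members, the targeted genes and up to 4 genes with the largest ratios per list. Alternatives were centring on the median, quantile normalization, loess (span 0.3), low-signal limits at the 25th and the 75th percentile, no limit (pseudocount 16), each gene's median over probe sets, no _x_at or _s_at probe sets, and 4-fold or 1.5-fold thresholds. The ratio script was tested on simulated data. Python 3.11.15, numpy 2.4.6, pandas 2.3.3, statsmodels 0.14.6 and matplotlib 3.10.9 were used.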

Additional observations from a re-analysis of the deposited data

How the results depend on the processing

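The member median log2 ratio stayed between -0.22 and 0.026 over 8 alternatives and was above 0 only where each gene took the median over its probe sets. The median of all measured genes, 0.09 as reported, moved to -0.019 with centring and -0.021 with loess, and member ratios are to be read relative to it. At least 2-fold apart were 714 lower genes and 800 higher ones as reported, against 938 and 449 with loess, 804 and 546 with quantile normalization and 859 and 572 after centring. A 25th-percentile limit gave 1232 and 2742 of 16539 genes, a 75th-percentile limit 383 and 148 of 7980, no limit 1704 and 3548 of 18193. The counts were 142 and 21 at 4-fold and 1743 and 2505 at 1.5-fold. Member probe sets at least 2-fold higher numbered 2 under a 25th-percentile limit and 3 with no limit, from dim probe sets. Over all measured genes, 16.6% and 19.5% were at least 2-fold higher under these settings. At 4-fold 0 member probe sets were lower. At 1.5-fold 1 member gene was higher (Epcam), with 2 lower probe sets and 1 higher one. Over all measured genes, 13.1% were lower and 18.8% higher at this threshold.

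Under a 25th-percentile limit the thymus median was 0.91, and with no limit 0.80. With the limit at the 75th percentile the medians were -0.32 for adherens junction genes, -4.71 for striated muscle, -0.062 for lung and -0.56 for mesothelium. Without _x_at and _s_at probe sets the stomach median was 1.01 and Cd8a 0.80; Cd8a, 2.20-fold lower as reported, was 0.38 with the median of its probe sets. The cause of these moves was not tested. No paired analysis was possible because each genotype has 1 array, and no replicate could be left out. Signals near the limit carry little information on size.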

Other observations

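Some epithelial genes outside the desmosome set differed in the same direction at each of their probe sets with a ratio; they were picked once the values were known. The 3 probe sets of Krt6a, a keratin of stratified and regenerating epithelia, had log2 ratios of -0.64, -1.89 and -2.19. The 3 probe sets of Krt8, a keratin of simple epithelia, had -1.25, -1.17 and -1.28, and both probe sets of the laminin receptor gene Itga6 had -0.98 and -0.93. Krt14, a basal keratin, had -1.30 and a bound of -1.89 at a second probe set, while its last had no ratio, with 424 and 441 under the limit. Cldn7 was at least 2-fold lower in all 8 alternatives, from -2.06 to -1.82 on the log2 scale, as was Krt7, from -2.68 to -2.48. Each rested on 1 probe set far above the limit. Only centring, quantile normalization and loess could shift such a ratio by more than a trace, so the other alternatives add no support. The Dsc2 probe set 1421156_a_at was at least 2-fold lower in all 6 alternatives that apply to a single probe set, from -1.44 to -1.10, while 1426911_at stayed between -0.29 and -0.081.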
